A study of Homo sapiens with 12 samples.

Results

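RNA of A549 cells, an established human lung adenocarcinoma line, was sequenced 24 h after cells had received either a control siRNA (siCo, treatment label NTC) or a pair of siRNAs that target YAP1 and WWTR1, the genes of YAP and TAZ. The treated group is the second of 2 such combinations (siYAP/TAZ#2, treatment label Y2T3). The comparison used 8 of the 12 libraries of the series, 4 of each group, which the series describes as biological replicates. The other 4 libraries, treated with the first combination (siYAP/TAZ#1), entered the same model and were set against siYAP/TAZ#2 where the text says so. All groups were the same line, at 1 time point, and carried an siRNA, so an untransfected state was not part of the comparison. siRNA sequences are not given in the sources used here. Every gene that passed a filter on low counts was a member, which gave 21581 of the 60617 identifiers in the deposited tables, among them 14805 coding and 4792 long non-coding RNA (lncRNA) genes. Levels are CPM, read counts scaled to library size with TMM factors, listed in the order of replicates 1 to 4. Changes are log2 values ± standard error from edgeR's quasi-likelihood fit, and a gene was called where its adjusted p was under 0.05.

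YAP and TAZ are transcriptional coactivators without a DNA-binding domain of their own. The Hippo kinases MST1/2 and LATS1/2 phosphorylate them and hold them in the cytoplasm, and when this restraint is low they enter the nucleus and act mainly through the TEAD transcription factors, often beside AP-1. Known outputs are secreted CCN proteins, cytoskeletal and adhesion genes, cell cycle genes and several Hippo pathway members that feed back on the pathway. In lung epithelium the pathway is known for its part in the balance between proliferation and differentiation.

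The TEAD factors bind a short word, GGAATG, which reads CATTCC on the other strand. Among a published signature of 22 YAP/TAZ target genes, 16 tested genes had an entry in RefSeq's promoter table (GRCh38.p14), and 8 of them (50%) held the word in the 250 bases before a transcription start, on either strand. Among all 13221 tested genes with an entry, counted the same way over any listed start, the share was 13.2%, and over the 35116 single promoters of the table it was 11.9%. At least 2 copies in 1 promoter were present in 3 of the 16 signature genes and in 0.94% of the tested genes. The promoters of 4 signature genes with strong falls below are shown 5′ to 3′ on the gene's own strand, with each copy of the word in capitals.
CCN2: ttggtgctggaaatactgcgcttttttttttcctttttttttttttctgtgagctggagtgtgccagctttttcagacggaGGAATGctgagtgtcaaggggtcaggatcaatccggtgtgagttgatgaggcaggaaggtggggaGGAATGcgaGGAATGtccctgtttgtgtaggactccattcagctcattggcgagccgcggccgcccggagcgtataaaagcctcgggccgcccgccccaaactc
ANKRD1: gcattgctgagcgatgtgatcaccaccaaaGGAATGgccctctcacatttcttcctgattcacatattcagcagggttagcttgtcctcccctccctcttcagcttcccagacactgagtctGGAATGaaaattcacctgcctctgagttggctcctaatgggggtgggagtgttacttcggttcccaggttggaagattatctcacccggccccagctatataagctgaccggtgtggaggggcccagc
NUAK2: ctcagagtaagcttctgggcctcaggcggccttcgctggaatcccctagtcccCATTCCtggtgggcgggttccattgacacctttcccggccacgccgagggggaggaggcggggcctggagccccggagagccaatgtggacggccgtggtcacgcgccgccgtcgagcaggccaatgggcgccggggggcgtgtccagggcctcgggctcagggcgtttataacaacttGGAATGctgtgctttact
AMOTL2: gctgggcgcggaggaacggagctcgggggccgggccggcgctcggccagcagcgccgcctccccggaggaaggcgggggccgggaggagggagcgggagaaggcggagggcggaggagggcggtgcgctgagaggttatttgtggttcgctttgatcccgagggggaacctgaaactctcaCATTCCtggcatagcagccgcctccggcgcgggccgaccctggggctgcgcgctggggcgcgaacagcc
These stretches are chr6:131951373-131951622, chr10:90921088-90921337, chr1:205321746-205321995 and chr3:134374448-134374697 (the second of 2 starts listed for AMOTL2), all on the minus strand. The copies began 169, 104 and 95 bases before the start of CCN2, 220 and 128 before that of ANKRD1, 197 and 18 before that of NUAK2, and 69 before that of AMOTL2. ANKRD1 also held an AP-1 word (TGANTCA, either strand, with no overlap with the TEAD word), 195 bases before its start, as did 6.57% of all promoters. No copy of either word was found in this window of LATS2, MYOF, FJX1, IGFBP3, NT5E, CCDC80 or RBMS3, which says only that these letters are not in this window. Among the 13221 tested genes with an entry, the TEAD word stood in 12.7% of those called lower, 13.4% of those called higher and 13.3% of the rest. For genes lower by a log2 change of 1 or more the share was 18.4% (46 of 250), against 12.7% (85 of 670) for those higher by as much.

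Library totals ran from 30.1 to 37.3 × 1e6 estimated counts in siCo and from 29.6 to 35.6 × 1e6 in siYAP/TAZ#2, and 10 counts corresponded to 0.261 to 0.338 CPM. Replicate 1 of siYAP/TAZ#2 stood apart: genes in the top GC quintile exceeded its 3 companions by 0.755 (log2) more than genes in the bottom quintile, while this trend ran from -0.320 to 0.215 in the other 11 libraries. Results were therefore computed with and without it. Of the genes called with all libraries, 95.4% of those lower and 93.4% of those higher were called in the same direction without it, and 0 in the opposite one. With all libraries, calls against siCo varied with GC content. The lowest quintile had 783 lower and 579 higher of 4204 genes (median change -0.014), and the highest 706 lower and 1181 higher of 4204 (0.081). TMM factors were 0.887 to 0.944 in siCo and 0.967 to 1.099 in siYAP/TAZ#2, so scaling mattered: the median change of all genes was 0.02 with TMM and 0.21 with library size alone.

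**Figure D1:**
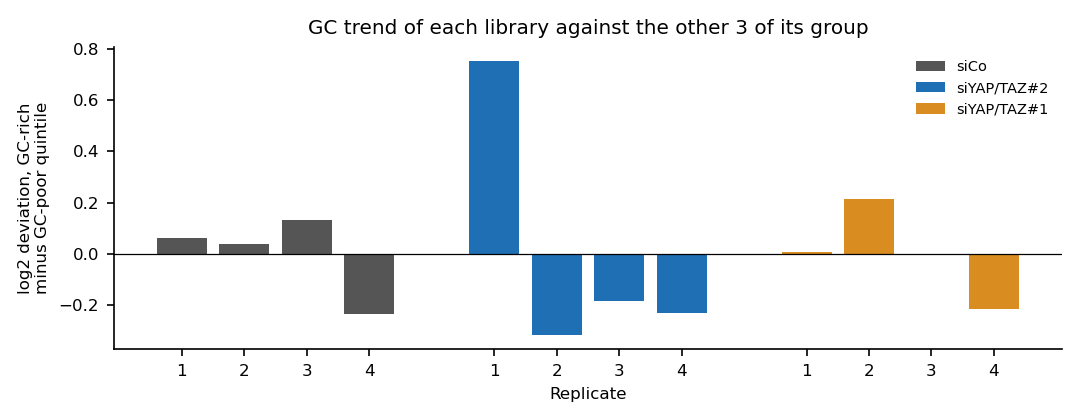
Difference in median log2 deviation between genes of the highest and lowest quintile of GC content, for each library against the other 3 of its group (bars, replicates 1 to 4 of siCo, siYAP/TAZ#2 and siYAP/TAZ#1). Replicate 1 of siYAP/TAZ#2, at 0.755, is far above all others.

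Both targets fell in every treated library. YAP1 (ENSG00000137693, chr11:102110461-102233423, plus strand) measured 125, 116, 124 and 121 CPM in siCo and 19.1, 17.03, 16.9 and 16.5 CPM in siYAP/TAZ#2, which left 14.3%. WWTR1 (ENSG00000018408, chr3:149517235-149736714, minus strand) went from 239, 230.0, 254 and 240.2 CPM to 29.7, 33.05, 31.6 and 35.3 CPM, which left 13.5%. The groups did not overlap for either gene, and the log2 changes were -2.80 ± 0.07 and -2.89 ± 0.06. An exact permutation test (two-sided, on log2 CPM) gave p = 0.0286 for both YAP1 and WWTR1, the smallest value possible with 4 against 4 libraries.

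Of the 21581 genes, 4144 (19.2%) were called lower and 4100 (19.0%) higher, 38.2% together. Large changes were more often rises: 403 genes fell and 1078 rose by a log2 change of 1 or more, and 43 fell and 171 rose by 2 or more. In 7475 genes (34.6%) the libraries of the groups did not overlap. Among coding genes 25.7% were lower and 23.3% higher, and among lncRNA genes 4.86% and 9.95%, although the typical lncRNA gene was scarce (median 0.682 CPM, against 21.4 CPM for coding genes). With library size alone the split of calls was 2037 lower (9.44%) and 6538 higher (30.3%). In bulk RNA, fewer cells of a kind and less RNA per cell cannot be told apart.

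**Figure D2:**
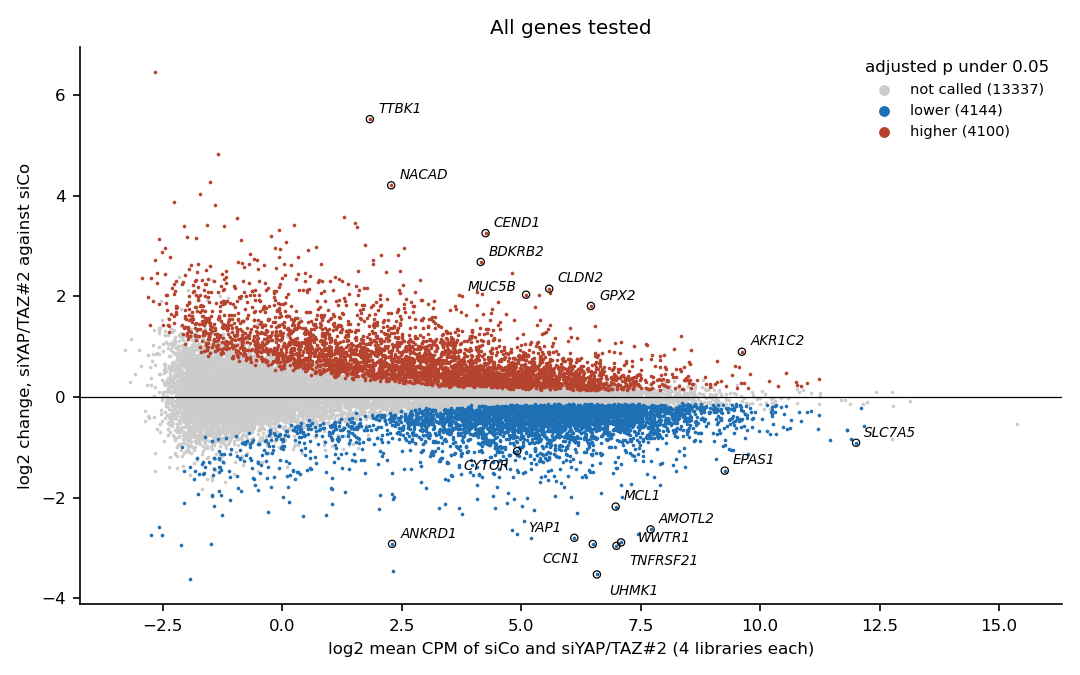
Log2 change against log2 mean CPM for the 21581 genes tested, each point 1 gene, with genes at an adjusted p under 0.05 in blue (4144 lower) and red (4100 higher). YAP1, WWTR1 and UHMK1 are among the largest falls at high levels, while the largest rises, such as TTBK1, are genes at low levels.

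All 22 genes of the YAP/TAZ target signature fell, with a median change of -0.83 against 0.02 for all genes, and 21 of them had no overlap between the groups. With library size alone 19 of the 22 were called lower, and without replicate 1 all 22 were called lower. On log2(TPM + 1) ASAP1, CRIM1 and IGFBP3 stood at 0.10, 0.06 and 0.20, without passing the test. Mean TPM in siCo and siYAP/TAZ#2 also differed little for GADD45A (5.32 and 5.34), RBMS3 (3.64 and 3.57), ARHGEF17 (14.4 and 13.3) and MYOF (89.6 and 81.3). It fell clearly for the strongest members, such as CCN1 (57.9 and 10.2). Within the signature, CCN1, ANKRD1 and AMOTL2 fell most. CCN1 (ENSG00000142871, chr1:85580761-85583962, plus strand), a secreted matricellular protein, measured 159, 154, 168 and 158 CPM in siCo and 24.1, 19.4, 20.5 and 20.3 CPM after treatment (-2.92 ± 0.07, adjusted p = 1.3e-13). ANKRD1, a nuclear ankyrin repeat protein used widely as a YAP reporter, went from 8.26, 8.72, 8.44 and 9.45 CPM to 1.04, 1.10, 1.10 and 1.35 CPM (-2.92 ± 0.15, adjusted p = 3.9e-10). AMOTL2, an angiomotin that binds YAP and holds it at junctions, went from 370.5, 346, 388 and 339 CPM to 74.1, 49.4, 53.9 and 55.2 CPM (-2.63 ± 0.11, adjusted p = 3.2e-11). In all 3 genes the treated libraries lay far below every control library, and replicate 1 was the highest treated library for CCN1 and AMOTL2. CCN2, the connective tissue growth factor whose promoter held 3 copies of the TEAD word, went from 22.9, 23.2, 23.4 and 21.2 CPM to 5.37, 3.25, 4.89 and 4.48 CPM (-2.33 ± 0.15, adjusted p = 6.4e-09).

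A second tier of the signature changed by between 1 and 2 log2 units. NUAK2, an AMPK-related kinase, went from 128, 122, 140.1 and 126 CPM to 52.8, 41.3, 43.8 and 44.96 CPM (-1.5 ± 0.08, adjusted p = 5.8e-10). TGFB2, a TGF-beta ligand, went from 139, 129.7, 136 and 129 CPM to 51.2, 46.6, 47.3 and 45.1 CPM (-1.49 ± 0.06, adjusted p = 3.2e-11). AXL, a receptor tyrosine kinase, changed by -1.13 ± 0.07, LATS2, the Hippo kinase that phosphorylates YAP, by -1.14 ± 0.09, and F3, tissue factor, by -1.14 ± 0.15. The smallest falls were those of IGFBP3 (-0.25 ± 0.06), ASAP1 (-0.28 ± 0.06) and CRIM1 (-0.34 ± 0.05). IGFBP3 and ASAP1 were not called with library size alone (-0.06 and -0.09), nor was GADD45A (-0.48 with TMM, -0.30). FJX1 was the member whose groups overlapped, because its treated replicate 1 measured 82.2 CPM while the other 3 treated libraries lay between 51.3 and 58.7 CPM and the controls between 79.0 and 112 CPM. FOXF2 had the same shape, with 41.7 CPM in replicate 1 and 23.8 to 27.2 CPM in the other 3. Without replicate 1 the changes of FJX1 and FOXF2 were -0.77 and -0.97, against -0.60 and -0.77 with it.

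**Figure D3:**
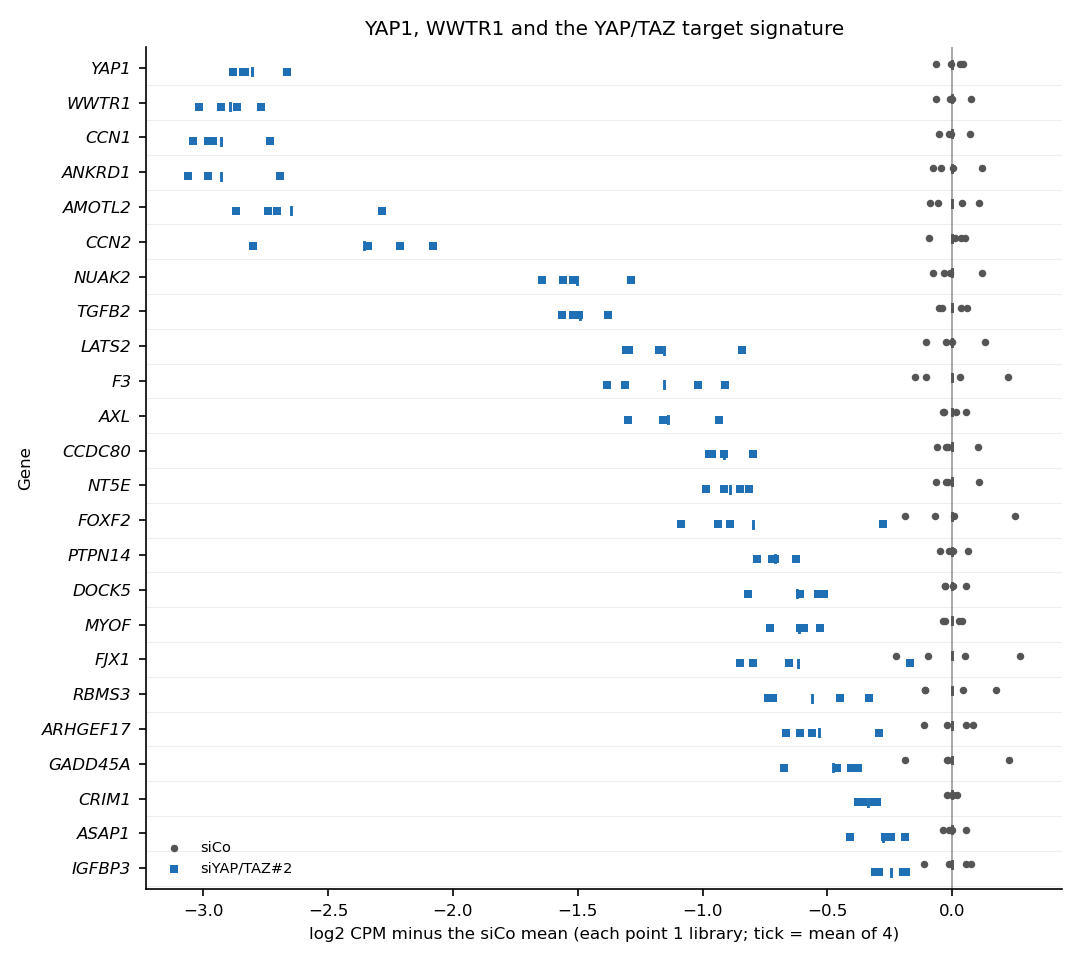
Log2 CPM of YAP1, WWTR1 and the 22 signature genes in each siCo library (grey circles) and siYAP/TAZ#2 library (blue squares), minus the mean of siCo, with a tick at each mean of 4. The treated libraries lie left of all control libraries for 21 of the 22 genes, and FJX1 is the exception.

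Upstream of YAP and TAZ, 15 of 31 Hippo kinases, adaptors and regulators fell and 5 rose, with a median of -0.18 that moved to -0.01 with library size alone (13 lower, 9 higher). Those that fell include NF2, the tumour suppressor merlin that activates LATS kinases, which went from 357, 351, 375 and 335 CPM to 156, 131, 145 and 136 CPM (-1.32 ± 0.07, adjusted p = 3.9e-10). WWC1, the LATS-binding scaffold KIBRA, changed by -1.28 ± 0.07 and FRMD6, a FERM protein upstream of the kinases, by -1.12 ± 0.06. Of the 6 TEAD and VGLL genes tested 4 fell. TEAD1 changed by -0.54 ± 0.07, TEAD4 by -0.64 ± 0.11, TEAD2 by -0.38 ± 0.07 and VGLL3, a cofactor that competes for TEADs, by -0.56 ± 0.07. TEAD3 (0.28 ± 0.12, adjusted p = 0.081) and VGLL4 (-0.18 ± 0.08, adjusted p = 0.11) did not pass the test. VGLL4 was called lower without replicate 1 (-0.24, adjusted p = 0.012), and TEAD3 was called higher with library size alone (0.45).

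AP-1 subunits went both ways, with 7 of 18 lower and 7 higher (5 lower and 11 higher with library size alone). FOSL1 (FRA1), the FOS-family subunit prominent in carcinoma lines, went from 114, 117, 138 and 111 CPM to 30.8, 19.6, 23.3 and 23.9 CPM (-2.30 ± 0.11, adjusted p = 2.9e-10). FOS itself, the immediate-early subunit, rose from 2.33, 2.68, 1.84 and 2.62 CPM to 5.75, 5.49, 4.65 and 5.07 CPM (1.14 ± 0.13, adjusted p = 2.6e-06). Neither gene's groups overlapped. FOSL2 fell by a smaller amount (-0.41 ± 0.06).

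The largest falls among coding genes reached beyond the signature. UHMK1 (ENSG00000152332, chr1:162497251-162529629, plus strand), a serine/threonine kinase with a U2AF homology motif, went from 177, 166, 174 and 191 CPM to 11.5, 18.4, 16.4 and 15.00 CPM (-3.53 ± 0.11, adjusted p = 1.3e-12). TNFRSF21 (chr6:47231532-47309905, minus strand), the death receptor DR6, went from 222, 228, 240.0 and 215 CPM to 32.6, 27.2, 28.9 and 27.6 CPM (-2.96 ± 0.07, adjusted p = 1.3e-13). TMTC3 (chr12:88142296-88199887, plus strand), an endoplasmic reticulum mannosyltransferase, went from 61.2, 59.5, 64.1 and 72.7 CPM to 7.23, 9.16, 9.08 and 11.3 CPM (-2.81 ± 0.11, adjusted p = 1.5e-11). In these 3 genes the treated and control libraries lay far apart. ARL6IP1, which shapes endoplasmic reticulum tubules, OSTM1, the partner of the lysosomal chloride transporter CLCN7, and LIN7C, a polarity scaffold, changed by -2.73 ± 0.09, -2.72 ± 0.07 and -2.65 ± 0.11. These 6 genes responded far less to the first combination, as given below. An identifier without a symbol, ENSG00000260342, also ranked here (-3.46 ± 0.64). It lies at chr16:18788063-18801519, minus strand, and overlaps ARL6IP1 (chr16:18791667-18801678, minus strand), so reads of the pair may not be separable. Its libraries ran from 3.78 to 12.4 CPM in siCo, and 2 of 4 treated libraries had a count of 0.

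Genes with the largest rises were low in siCo. TTBK1 (chr6:43243680-43288259, plus strand), a tau kinase, was at 0.306, 0.0308, 0 and 0.228 CPM in siCo and at 8.59, 5.99, 7.04 and 6.42 CPM after treatment (5.52 ± 0.35, adjusted p = 6.1e-09). NACAD, related to the nascent polypeptide complex, was at 0.673, 0.431, 0.488 and 0.398 CPM and then at 10.5, 7.52, 9.16 and 9.80 CPM (4.21 ± 0.20, adjusted p = 1.8e-10). CEND1, known from neurons leaving the cell cycle, went from 3.73, 3.39, 4.76 and 2.73 CPM to 49.1, 26.04, 31.2 and 32.2 CPM (3.26 ± 0.19, adjusted p = 1.9e-09). TTBK1 had a control library at 0 and the others at or under 0.306 CPM, so the size of its fold rests on very few control counts. Other members of this group were the small GTPase gene RAB39B (3.46 ± 0.20), the synaptic adhesion gene LRRC4B (2.95 ± 0.15), the splicing regulator NOVA2 (2.82 ± 0.13) and the adenylyl cyclase gene ADCY5 (2.81 ± 0.21). PRODH2, TTLL6 and BDKRB2 rose by 3.03 ± 0.18, 2.72 ± 0.15 and 2.68 ± 0.09, and TJP3, the tight junction scaffold ZO-3, by 2.64 ± 0.18. SULT1A4 ranked here as well (3.37 ± 0.53), but it has a near-identical copy between which reads cannot be split with certainty.

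In CPM, which is not corrected for gene length, other genes moved most. SLC7A5, the LAT1 amino acid transporter, went from 5474, 5459, 5439.7 and 5162 CPM to 3162, 2719, 2819 and 2744 CPM (-0.91 ± 0.06, adjusted p = 1.0e-08). ACTG1, cytoplasmic gamma-actin, went from 4943, 4820.4, 4910.2 and 4891 CPM to 2844, 2558, 2712 and 2780.0 CPM (-0.84 ± 0.05, adjusted p = 6.5e-09). The mean differences were -2522 and -2167 CPM, and neither gene's groups overlapped. KRT7, MYH9 and AHNAK changed by -0.85 ± 0.12, -0.64 ± 0.10 and -0.63 ± 0.07, and PKM by -0.22 ± 0.05, a fall not called with library size alone (-0.04). The rises in CPM were led by aldo-keto reductases. AKR1C2 went from 537, 545, 538 and 580.0 CPM to 938, 1049, 1057 and 1057 CPM (0.90 ± 0.06, adjusted p = 1.2e-08). AKR1B10, ABCC3 and FTH1 rose by 0.48 ± 0.05, 0.61 ± 0.05 and 0.27 ± 0.07, and ALDH3A1 by 0.30 ± 0.08, which was 0.20 without replicate 1.

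Growth-related gene groups fell together in CPM scaled with TMM factors. Among DNA replication genes 42 of 48 fell and 1 rose (median -0.38; 22 and 3 with library size alone), and among mitosis genes 34 of 45 fell and 1 rose (14 and 1 with library size alone). CDC45, a helicase subunit at replication forks, went from 32.4, 30.5, 30.1 and 29.8 CPM to 14.6, 14.1, 15.5 and 14.2 CPM (-1.07 ± 0.07, adjusted p = 4.8e-09). CCNA2, cyclin A2, went from 81.6, 69.5, 76.6 and 78.9 CPM to 35.9, 36.3, 38.3 and 37.01 CPM (-1.05 ± 0.06, adjusted p = 1.2e-09). In both genes all treated libraries lay well below the controls. RPA2, UHRF1 and MCM10 changed by -1.10 ± 0.08, -1.10 ± 0.09 and -0.69 ± 0.06, and the mitotic kinases PLK1, AURKA and AURKB by -0.61 ± 0.06, -0.62 ± 0.06 and -0.54 ± 0.05. Of 26 genes of G1 control 16 fell and 2 rose (10 and 5 with library size alone). CDC25A, the phosphatase that activates CDK2, led them, from 55.95, 54.7, 60.3 and 54.7 CPM to 10.1, 10.4, 10.4 and 9.89 CPM (-2.46 ± 0.06, adjusted p = 1.4e-13). E2F5, a repressor of the E2F family, went from 16.2, 17.4, 17.6 and 17.8 CPM to 3.73, 4.18, 4.38 and 3.44 CPM (-2.13 ± 0.09, adjusted p = 3.1e-11). CCND1, cyclin D1, went from 778, 752, 775 and 731 CPM to 370.4, 287, 326 and 315 CPM (-1.23 ± 0.07, adjusted p = 1.2e-09). CDK6 and CDK2 fell less (-0.73 ± 0.08 and -0.62 ± 0.06). Nucleotide synthesis enzymes followed, with 25 of 32 lower and 1 higher (15 and 2 with library size alone), led by CTPS1 (-1.06 ± 0.06) and PPAT (-1.18 ± 0.09).

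Ribosome biogenesis was the most uniform group after the signature: 41 of 43 genes fell, with a median of -0.56, and 33 fell with library size alone. MYC, a transcription factor known to drive many of these genes but not on this list, went from 301, 285, 307 and 294 CPM to 149, 104, 115 and 121 CPM (-1.28 ± 0.08, adjusted p = 8.4e-09). Its part in the falls of this group was not tested. Of 12 tested genes of MYC and the MAX network 2 fell and 3 rose, with a median of 0.02 (1 and 6 with library size alone). NOLC1, a nucleolar phosphoprotein, went from 223, 239, 233 and 254 CPM to 131, 109.6, 126 and 122 CPM (-0.96 ± 0.06, adjusted p = 1.0e-08). DKC1, the pseudouridine synthase of box H/ACA particles, changed by -0.95 ± 0.06, and WDR43, NOP56 and NOL6 by -0.80 ± 0.07, -0.66 ± 0.05 and -0.63 ± 0.05. Of 39 translation initiation factor genes 26 fell, against 13 lower and 1 higher when scaled by library size alone. They include EIF4G2 (-0.81 ± 0.07), EIF4A1 (-0.62 ± 0.06) and EIF4G1 (-0.60 ± 0.07). Cytosolic ribosomal protein genes moved little: 37 of 77 fell, the median was -0.20, and with library size alone 2 fell and 1 rose, at a median of -0.01. Mitochondrial ribosomal protein genes gave 37 of 77 lower and 1 higher, and 10 and 4 with library size alone, with MRPL3 the clearest fall (-0.80 ± 0.07). Of the 13 mitochondrially encoded mRNAs 0 were called with edgeR, 0 at an unadjusted p under 0.05 and 0 with DESeq2, while 6 were called higher without replicate 1, and 6 with library size alone.

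Metabolic groups were mixed. Among genes of glycolysis, pyruvate and lactate handling 16 of 29 fell and 5 rose (6 and 8 with library size alone). SLC16A1, the lactate transporter MCT1, went from 70.6, 65.8, 63.4 and 71.5 CPM to 18.03, 25.02, 24.2 and 23.6 CPM (-1.58 ± 0.10, adjusted p = 4.1e-09). The glucose transporter SLC2A1 and the phosphofructokinase PFKP changed by -0.74 ± 0.06 and -0.72 ± 0.07. PDK4 and PDK2, kinases that hold back pyruvate dehydrogenase, rose by 1.01 ± 0.07 and 0.80 ± 0.06. Of 76 nuclear-encoded respiratory chain subunits 13 fell and 1 rose, shares below those of all genes (4 lower and 8 higher with library size alone). Of 26 further hypoxia genes 13 fell and 4 rose (11 and 5 with library size alone). PLOD2, a collagen lysyl hydroxylase, went from 205, 218, 219 and 238 CPM to 47.2, 58.9, 58.9 and 56.7 CPM (-1.99 ± 0.07, adjusted p = 1.2e-11). EPAS1, the HIF2-alpha subunit, went from 898, 899, 898 and 913 CPM to 336, 314, 322 and 334 CPM (-1.47 ± 0.05, adjusted p = 6.8e-12), and the secreted factors ADM and VEGFA changed by -1.91 ± 0.11 and -1.25 ± 0.07.

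Antioxidant genes rose more often than they fell, with 17 of 33 higher and 4 lower (24 and 1 with library size alone). GPX2, the epithelial glutathione peroxidase, went from 39.98, 36.3, 36.2 and 44.2 CPM to 135, 133, 139 and 142 CPM (1.81 ± 0.07, adjusted p = 1.5e-11). AKR1C1 and AKR1C3 rose by 1.06 ± 0.06 and 0.93 ± 0.07, though reads of these close paralogs and AKR1C2 may not be fully separable. GSR, the reductase that recycles glutathione, was an exception and went from 301, 313, 304 and 307 CPM to 141, 152, 155 and 153 CPM (-1.03 ± 0.05, adjusted p = 5.8e-10). Genes of fatty acid and triglyceride synthesis gave 10 of 22 higher and 3 lower (13 and 1 with library size alone), with MLXIPL, the carbohydrate-response factor ChREBP, at 1.43 ± 0.15 and ELOVL1 at -0.67 ± 0.06. Cholesterol genes gave 9 of 25 lower and 3 higher, a direction that turned to 4 lower and 7 higher with library size alone. SREBF2, their main transcription factor, went from 266, 260.4, 247 and 247 CPM to 170.5, 155, 165 and 163 CPM (-0.64 ± 0.06, adjusted p = 1.6e-07), and INSIG1, which retains SREBP precursors in the endoplasmic reticulum, changed by -0.57 ± 0.06. Lysosome and autophagy genes gave 20 of 47 higher and 9 lower, and 31 and 7 with library size alone. WIPI1, a phosphoinositide-binding autophagy protein, rose by 1.02 ± 0.06, while BECN1 (-0.80 ± 0.06), ATG3 (-0.76 ± 0.06) and ATG7 (-0.61 ± 0.07) fell.

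**Figure D4:**
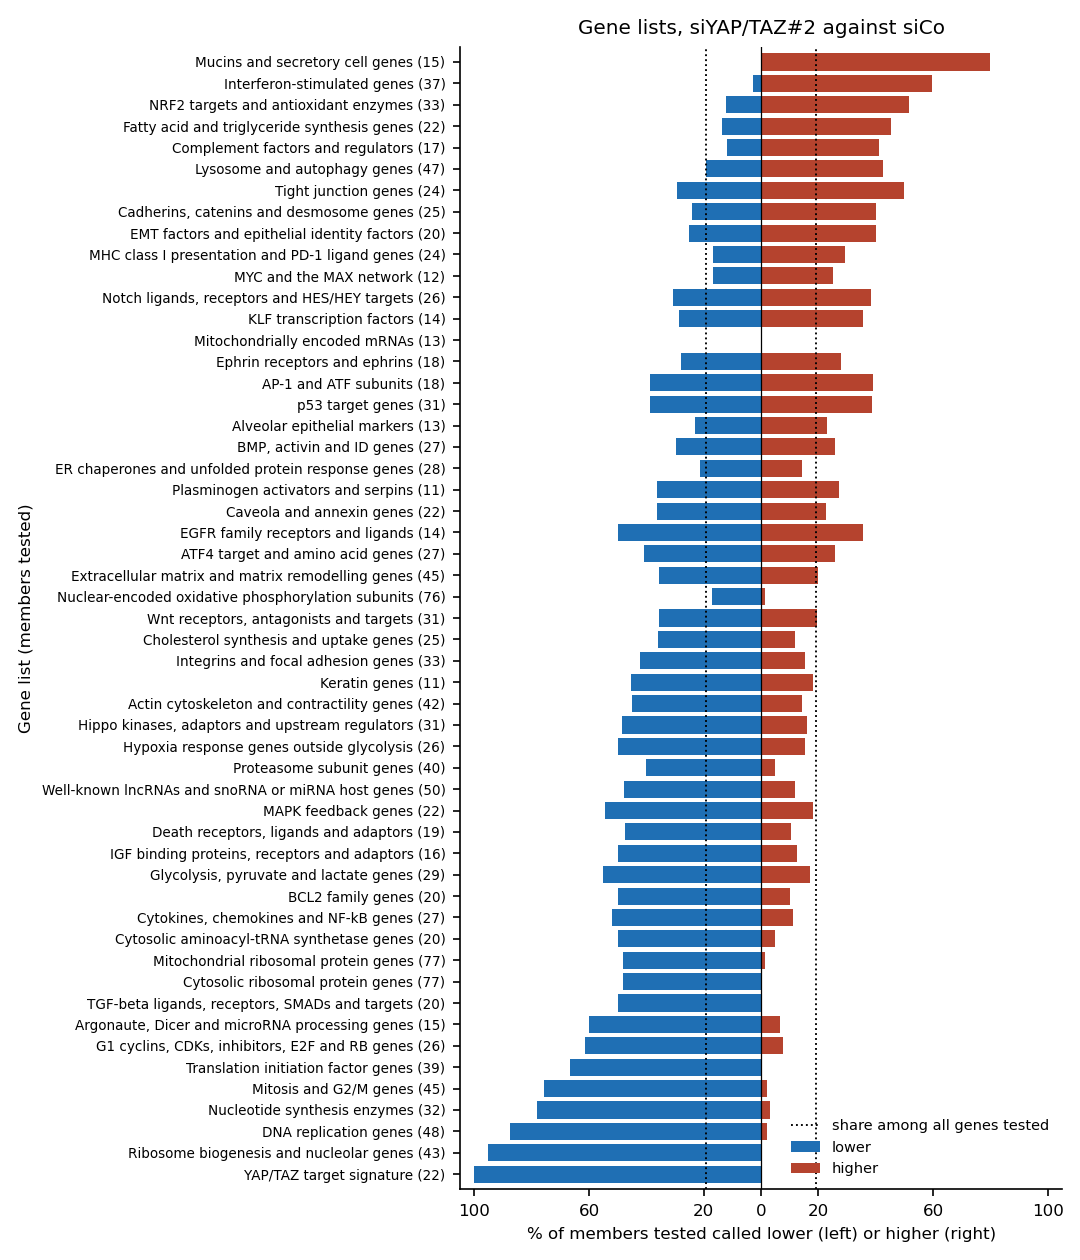
Share of the tested members of each list that were called lower (blue, to the left) or higher (red, to the right), for lists with at least 10 members tested, whose number stands in brackets. Dotted lines mark the shares among all genes, 19.2% lower and 19.0% higher. Among coding genes alone, which most lists hold, the shares were 25.7% lower and 23.3% higher. The YAP/TAZ signature (22 of 22 lower) and ribosome biogenesis (41 of 43 lower) lie at the bottom, and mucins and secretory cell genes (12 of the 15 tested higher) at the top.

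Of 27 mucin and other secretory or lineage genes of the airway, 15 passed the filter on low counts, and 12 of these were higher, with a median of 0.81 (13 with library size alone). The 12 that did not pass include defining secretory genes, among them MUC2, MUC4, MUC16, SCGB1A1, SCGB3A1, BPIFA1, BPIFB1, AGR3 and the trefoil genes TFF1, TFF2 and TFF3. MUC5B (chr11:1223066-1262172, plus strand), a gel-forming mucin, went from 14.5, 13.1, 14.3 and 12.3 CPM to 67.4, 51.3, 47.9 and 54.8 CPM (2.03 ± 0.10, adjusted p = 5.4e-10). MUC5AC, the other main airway mucin, went from 73.97, 79.1, 91.9 and 77.5 CPM to 209, 168, 135 and 169 CPM (1.08 ± 0.10, adjusted p = 4.5e-07). SPDEF, the transcription factor of goblet cell differentiation, went from 6.42, 4.47, 5.93 and 5.98 CPM to 25.2, 16.7, 17.8 and 16.8 CPM (1.75 ± 0.15, adjusted p = 1.3e-07). None of these groups overlapped, and for all 3 genes replicate 1 was the highest treated library. AGR2, a secretory disulfide isomerase, rose by 1.38 ± 0.09 and TP63, a basal cell factor, by 2.30 ± 0.19. Without replicate 1 the changes of MUC5B, MUC5AC and SPDEF were 1.93, 0.97 and 1.59.

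Junction and epithelial genes moved the same way in part. Of 24 tight junction genes 12 rose and 7 fell (13 and 4 with library size alone). CLDN2, a pore-forming claudin, went from 17.4, 17.8, 17.7 and 17.9 CPM to 78.7, 76.7, 80.1 and 79.1 CPM (2.15 ± 0.05, adjusted p = 1.5e-13), with treated libraries between 76.7 and 80.1 CPM. CLDN12 and CLDN1 fell, by -1.58 ± 0.09 and -0.88 ± 0.07. Of 25 cadherin, catenin and desmosome genes 10 rose and 6 fell, and 16 rose and 2 fell with library size alone. CDH17 and CDH6 rose from low levels (2.23 ± 0.16 and 1.80 ± 0.12). JUP, plakoglobin, went from 196, 199, 200.5 and 193 CPM to 552, 399, 425 and 458 CPM (1.22 ± 0.08, adjusted p = 8.3e-09). CDH1, E-cadherin, rose by 0.57 ± 0.07, and the epithelial factors ELF3 and EHF by 1.01 ± 0.07 and 0.99 ± 0.13. SNAI2 and ZEB1, repressors of the epithelial program, changed by -1.52 ± 0.13 and -0.69 ± 0.09. These 4 factors were picked from a list that went both ways. Of its 20 tested factors of epithelial identity or its loss, 8 rose and 5 fell, as with library size alone. The median was 0.02, that of all genes, and GRHL2, OVOL1, ESRP1, RAB25 and PRRX1 did not pass the filter on low counts. Of 11 keratin genes tested 5 fell and 2 rose (4 and 5 with library size alone). Among them KRT80 fell by 1.48 ± 0.08 and KRT19 rose by 0.83 ± 0.11. The surfactant genes that mark alveolar type 2 cells were at or near 0: 9 of 21 alveolar markers, SFTPA1, SFTPA2, SFTPB, SFTPC and SFTPD among them, lay under 0.5 CPM in all 8 libraries, and SFTPA1 had a count of 0. Among the 13 tested, LPCAT1, which makes surfactant lipid, fell by 1.24 ± 0.08 and AQP3 rose by 1.19 ± 0.08.

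Interferon-stimulated genes rose in number, with 22 of the 37 tested higher and 1 lower, at a median change of 0.64. Scaled by library size alone, 27 were higher. IFITM1, RSAD2, BST2, EPSTI1 and DDX58 were on the list but not among the genes tested, so their response is not known here. The tested members were scarce, with a median level of 4.5 CPM. IRF9, the DNA-binding subunit of the ISGF3 complex, went from 7.25, 7.70, 6.15 and 7.31 CPM to 16.9, 19.6, 15.8 and 17.6 CPM (1.29 ± 0.10, adjusted p = 6.1e-08). OAS1, a sensor of double-stranded RNA, went from 8.78, 8.50, 8.25 and 9.93 CPM to 17.7, 18.4, 20.2 and 20.6 CPM (1.11 ± 0.09, adjusted p = 4.7e-08). Each gene's level was low, and the treated libraries all lay above the controls. IFI35, HERC6 and ISG20 rose by 0.87 ± 0.06, 0.98 ± 0.12 and 0.90 ± 0.11. Complement genes gave 7 of 17 higher and 2 lower. C3, the central complement component, rose by 0.84 ± 0.07. CD55, a membrane inhibitor of complement, fell by 0.54 ± 0.07. Genes of MHC class I presentation gave 7 of 24 higher and 4 lower, and 15 and 3 with library size alone. Among those lower were TAP2 and TAP1, the peptide transporter subunits (-0.87 ± 0.08 and -0.40 ± 0.06).

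Cytokine and NF-kB genes were lower in 14 of 27 cases and higher in 3. SOCS3, the feedback inhibitor of JAK-STAT signalling, went from 117, 122, 131 and 108 CPM to 49.3, 37.3, 38.7 and 38.5 CPM (-1.55 ± 0.10, adjusted p = 5.2e-09). IL11, an IL-6 family cytokine, went from 67.3, 61.4, 70.4 and 59.5 CPM to 30.03, 18.3, 20.6 and 16.8 CPM (-1.59 ± 0.14, adjusted p = 2.8e-07). LIF, of the same family, fell by 0.61 ± 0.05. ICAM1 and PTGS2 rose, by 1.30 ± 0.13 and 0.88 ± 0.09.

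Among growth factor receptors and their ligands, EGFR family genes gave 7 of 14 lower and 5 higher (5 and 6 with library size alone). Ephrin receptors and ephrins gave 5 of 18 lower and 5 higher (5 and 6 with library size alone). EPHA2, an ephrin receptor, went from 526, 479.7, 521 and 484 CPM to 227, 174, 184 and 182 CPM (-1.39 ± 0.08, adjusted p = 1.4e-09), while EFNB3 and EPHB6 rose by 1.51 ± 0.20 and 1.21 ± 0.17. The EGFR ligand genes HBEGF (-1.12 ± 0.14) and TGFA (-0.71 ± 0.11) and the ERBB3 ligand NRG1 (-0.89 ± 0.07) fell, EGFR itself fell by 0.39 ± 0.05, and ERBB3 rose by 1.10 ± 0.15. Of 22 MAPK feedback genes 12 fell and 4 rose (8 and 6 with library size alone), with DUSP7 (-1.44 ± 0.08) and DUSP1 (-0.90 ± 0.05) among the falls. INSR, the insulin receptor, went from 30.3, 29.8, 33.5 and 31.5 CPM to 16.01, 16.2, 16.1 and 15.3 CPM (-0.98 ± 0.07, adjusted p = 9.7e-09), and IGF1R and IRS1 changed by -0.67 ± 0.05 and -0.68 ± 0.08. Of 20 genes of the TGF-beta pathway 10 fell, and with library size alone 7 fell and 3 rose. SMAD3 and the targets PMEPA1 and TGFBI changed by -0.79 ± 0.06, -1.05 ± 0.09 and -0.73 ± 0.06. Wnt genes gave 11 of 31 lower and 6 higher, and 9 and 9 with library size alone. The antagonist DKK1 went from 170.3, 184, 172 and 194 CPM to 59.2, 65.4, 67.00 and 60.9 CPM (-1.51 ± 0.06, adjusted p = 4.5e-11). PORCN, the acyltransferase for Wnt ligands, and WNT7B changed by -1.20 ± 0.07 and -1.01 ± 0.11. In the Notch pathway the ligand JAG1 fell (-0.75 ± 0.06) while the receptor NOTCH3 rose (1.35 ± 0.10).

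Actin and matrix genes fell more often than they rose, but the direction depended on scaling. Actin and contractility genes gave 19 of 42 lower and 6 higher, and 10 lower and 12 higher with library size alone. MYLK, myosin light chain kinase, went from 212, 229, 219 and 227 CPM to 112, 91.5, 95.99 and 100.4 CPM (-1.15 ± 0.07, adjusted p = 1.8e-09). TPM1, tropomyosin, and CDC42EP3, a Cdc42 effector, changed by -0.88 ± 0.08 and -0.96 ± 0.05. Focal adhesion genes gave 14 of 33 lower and 5 higher, and 5 and 10 with library size alone. Matrix genes gave 16 of 45 lower and 9 higher, and 13 and 16 with library size alone. Among them SDC4, the heparan sulfate proteoglycan syndecan-4, went from 63.4, 65.1, 65.7 and 61.3 CPM to 12.3, 13.2, 14.00 and 14.5 CPM (-2.24 ± 0.07, adjusted p = 1.6e-12). FN1, fibronectin, moved the other way, from 153, 161, 151 and 162 CPM to 257, 262, 271 and 270.3 CPM (0.76 ± 0.05, adjusted p = 9.8e-09). The urokinase gene PLAU and its receptor PLAUR changed by -1.01 ± 0.05 and -0.59 ± 0.06, and the caveolins CAV1 and CAV2 by -0.66 ± 0.09 and -0.65 ± 0.06. Their lists went both ways. Plasminogen activators and serpins gave 4 of 11 lower and 3 higher (3 and 3 with library size alone). Caveola and annexin genes gave 8 of 22 lower and 5 higher (7 and 7 with library size alone).

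In the BCL2 family, 10 of 20 members fell and 2 rose (5 and 2 with library size alone). MCL1 (chr1:150574551-150579738, minus strand), which restrains BAX and BAK, went from 205, 214, 205 and 203 CPM to 46.00, 48.2, 46.4 and 41.8 CPM (-2.18 ± 0.06, adjusted p = 1.6e-13). BMF, a BH3-only promoter of cell death, went from 2.23, 2.22, 2.10 and 1.59 CPM to 8.30, 8.20, 9.86 and 8.89 CPM (2.12 ± 0.12, adjusted p = 1.9e-09). The groups lay far apart for both genes. BCL2L1, the gene of BCL-XL, changed by -0.50 ± 0.05 and PMAIP1, the BH3-only gene NOXA, by -1.38 ± 0.13, while BBC3, the gene of PUMA, rose by 0.45 ± 0.14 with overlapping groups. Of the effectors, BAX was called (-0.17 ± 0.07, adjusted p = 0.048; 0.01 with library size alone) and BAK1 was not (-0.04 ± 0.07, adjusted p = 0.71). BCL2L11, BID, BAD, BIK, HRK, BCL2A1 and BNIP3L did not pass the test, and BCL2, BCL2L2, BCL2L12, BCL2L13, BOK and BNIP3 fell with log2 changes between -0.57 and -0.24. Of 19 genes of death receptor signalling 9 fell and 2 rose (8 and 7 with library size alone), and beside TNFRSF21 they included TNFRSF10A (-0.84 ± 0.06) and the inhibitor CFLAR (-0.58 ± 0.05). p53 target genes gave 12 of 31 lower and 12 higher, and 5 and 14 with library size alone.

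Among lncRNA genes 233 fell and 477 rose. AFAP1-AS1 (chr4:7754090-7778928, plus strand), antisense to the actin filament gene AFAP1 and described in many carcinomas, had the deepest fall of the ranked lncRNAs. It measured 7.13, 9.73, 6.90 and 3.07 CPM in siCo and 2.81, 0.835, 0.994 and 1.13 CPM after treatment (-2.23 ± 0.38, adjusted p = 1.8e-04). SNHG15, a snoRNA host gene, went from 15.8, 11.2, 13.99 and 14.6 CPM to 5.68, 6.23, 6.39 and 5.13 CPM (-1.24 ± 0.13, adjusted p = 1.3e-06). CYTOR (chr2:87454781-87636740, plus strand), described as a cytoskeleton regulator RNA, went from 42.8, 39.4, 40.3 and 41.8 CPM to 17.1, 20.9, 20.9 and 18.97 CPM (-1.08 ± 0.07, adjusted p = 6.0e-09). The groups did not overlap in these genes, though AFAP1-AS1 varied widely among its control libraries. VPS9D1-AS1 and LINC00842 changed by -1.14 ± 0.06 and -1.01 ± 0.08. LINC01783, KCNH1-IT1 and ARHGEF17-AS1, each between 1.20 and 2.26 CPM in siCo, changed by -1.40 ± 0.21, -1.31 ± 0.24 and -1.05 ± 0.27. Strandedness is not given in the sources used here, so reads of an antisense gene and its partner cannot be told apart.

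The lncRNAs that rose most were scarce. LINC02532 (chr6:106717452-106787541, minus strand) went from 3.64, 3.91, 3.56 and 4.44 CPM to 9.16, 15.2, 10.9 and 11.3 CPM (1.58 ± 0.13, adjusted p = 1.4e-07), and LMNTD2-AS1 from 1.499, 1.72, 1.28 and 1.22 CPM to 4.83, 4.77, 3.65 and 4.603 CPM (1.64 ± 0.14, adjusted p = 1.9e-07). Both were separated from their controls in all 4 libraries. NPY2R-AS1, SSTR5-AS1, LINC00574, CHKA-DT, INKA2-AS1 and LINC01942 rose by log2 changes between 1.55 and 1.93, from at most 1.07 CPM in any control library. Of 50 well-known lncRNAs and host genes 24 fell and 6 rose (18 and 9 with library size alone). Host genes of snoRNAs were prominent among the falls, with SNHG17 (-1.0 ± 0.07), SNHG16 (-0.85 ± 0.08), SNHG1 (-0.76 ± 0.10), SNHG7 (-0.66 ± 0.09), GAS5 (-0.55 ± 0.08) and ZFAS1 (-0.46 ± 0.07), while SNHG5, SNHG6, SNHG29 and DANCR did not pass the test. MIR4435-2HG, a paralog of CYTOR that shares long stretches of sequence with it, changed by -0.86 ± 0.07, so reads of the pair may not be separable. TUG1 and NORAD also fell (-0.60 ± 0.10 and -0.48 ± 0.07). MIAT rose from 2.78, 2.49, 2.36 and 2.65 CPM to 5.08, 7.34, 5.64 and 6.89 CPM (1.27 ± 0.13, adjusted p = 1.2e-06), and MALAT1, the abundant nuclear lncRNA, by 0.36 ± 0.09. NEAT1 (0.12 ± 0.13, adjusted p = 0.52) did not pass the test, and its groups overlapped.

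With the first combination YAP1 measured 17.9, 19.2, 20.5 and 17.3 CPM and WWTR1 31.2, 33.1, 33.5 and 33.7 CPM. Neither target passed the test in the direct contrast of the combinations, with differences of -0.11 ± 0.07 and -0.02 ± 0.06 (adjusted p = 0.37 and 0.9). This contrast cancels the controls and tests the difference of the effects. It called 1493 genes lower (6.92%) and 1769 higher (8.20%) with siYAP/TAZ#2 than with siYAP/TAZ#1, 15.1% together. Without replicate 1 of siYAP/TAZ#2 these counts were 2287 and 2840. In 149 genes the combinations gave calls in opposite directions against the shared controls.

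UHMK1 stood at 11.5, 18.4, 16.4 and 15.00 CPM with siYAP/TAZ#2 and at 100.6, 98.3, 96.99 and 103 CPM with siYAP/TAZ#1, a difference of -2.70 ± 0.10 (adjusted p = 4.1e-11). TMTC3 stood at 7.23, 9.16, 9.08 and 11.3 CPM against 65.1, 63.2, 65.6 and 71.9 CPM, a difference of -2.85 ± 0.11 (adjusted p = 3.1e-11), and with the first combination it did not pass the test against siCo (0.05 ± 0.10). TNFRSF21 stood at 32.6, 27.2, 28.9 and 27.6 CPM against 170.3, 181, 169 and 158 CPM, a difference of -2.54 ± 0.07 (adjusted p = 1.1e-12). The libraries of the combinations did not overlap in any of the 3. OSTM1, ARL6IP1 and LIN7C were lower with the second combination by -2.19 ± 0.07, -2.16 ± 0.09 and -2.10 ± 0.11. E2F5 fell with siYAP/TAZ#2 (-2.13 ± 0.09) and changed by 0.03 ± 0.08 with siYAP/TAZ#1, and LYRM1, a mitochondrial LYR-motif protein, fell with the second (-1.81 ± 0.10) and rose with the first (0.45 ± 0.09). CDC25A, MCL1, SDC4 and PLOD2 fell with both, by more with the second: their differences were -1.88 ± 0.06, -1.45 ± 0.05, -1.24 ± 0.07 and -1.19 ± 0.07. CLDN12 and GREM1, an antagonist of BMP ligands, differed by -1.81 ± 0.09 and -1.45 ± 0.09.

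Other genes stood higher with siYAP/TAZ#2. EPAS1 measured 336, 314, 322 and 334 CPM, against 85.1, 90.3, 81.2 and 87.9 CPM with siYAP/TAZ#1, a difference of 1.92 ± 0.05 (adjusted p = 1.1e-12). MPC2, a subunit of the mitochondrial pyruvate carrier, measured 82.03, 66.1, 74.1 and 71.9 CPM against 12.5, 13.2, 10.9 and 10.96 CPM (2.63 ± 0.08, adjusted p = 7.5e-12). TFAM, which packages mitochondrial DNA, measured 33.3, 41.5, 46.2 and 39.8 CPM against 10.3, 9.49, 10.8 and 10.1 CPM (1.98 ± 0.10, adjusted p = 5.3e-10). MPC2 and TFAM lay above siCo with the second combination and below it with the first. MAT2B and MIS18A changed by 0.20 ± 0.09 and -0.31 ± 0.13 against siCo, without passing the test, and fell with the first combination, so that the differences were 2.74 ± 0.10 and 2.08 ± 0.15. MAT2B was called higher against siCo without replicate 1 (0.28, adjusted p = 0.0016) and with library size alone (0.39). CNIH1, GALNT12, RBPJ and the actin-binding TAGLN2 were higher with siYAP/TAZ#2 by 2.08 ± 0.11, 2.01 ± 0.16, 1.41 ± 0.10 and 1.52 ± 0.05, and NACAD by 2.17 ± 0.16.

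Within gene groups the combinations differed unevenly. Of the 22 signature genes 9 were higher and 1 lower with siYAP/TAZ#2 than with siYAP/TAZ#1, CRIM1 (0.77 ± 0.05), TGFB2 (0.77 ± 0.06), IGFBP3 (0.73 ± 0.06) and CCN2 (0.73 ± 0.17) by most, and AMOTL2 was the member that was lower (-0.43 ± 0.10). Of 42 actin genes 17 were higher and 2 lower. Of 25 cholesterol genes 13 were lower and 3 higher, and SREBF2 differed by -0.93 ± 0.06. Of 33 antioxidant genes 12 were lower and 2 higher, with GSR at -0.85 ± 0.05. INSR fell with the second combination and rose with the first (0.42 ± 0.06), as did SREBF2 (0.29 ± 0.06), GREM1 (0.32 ± 0.09), VGLL3 (0.35 ± 0.07) and NORAD (0.34 ± 0.07).

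**Figure D5:**
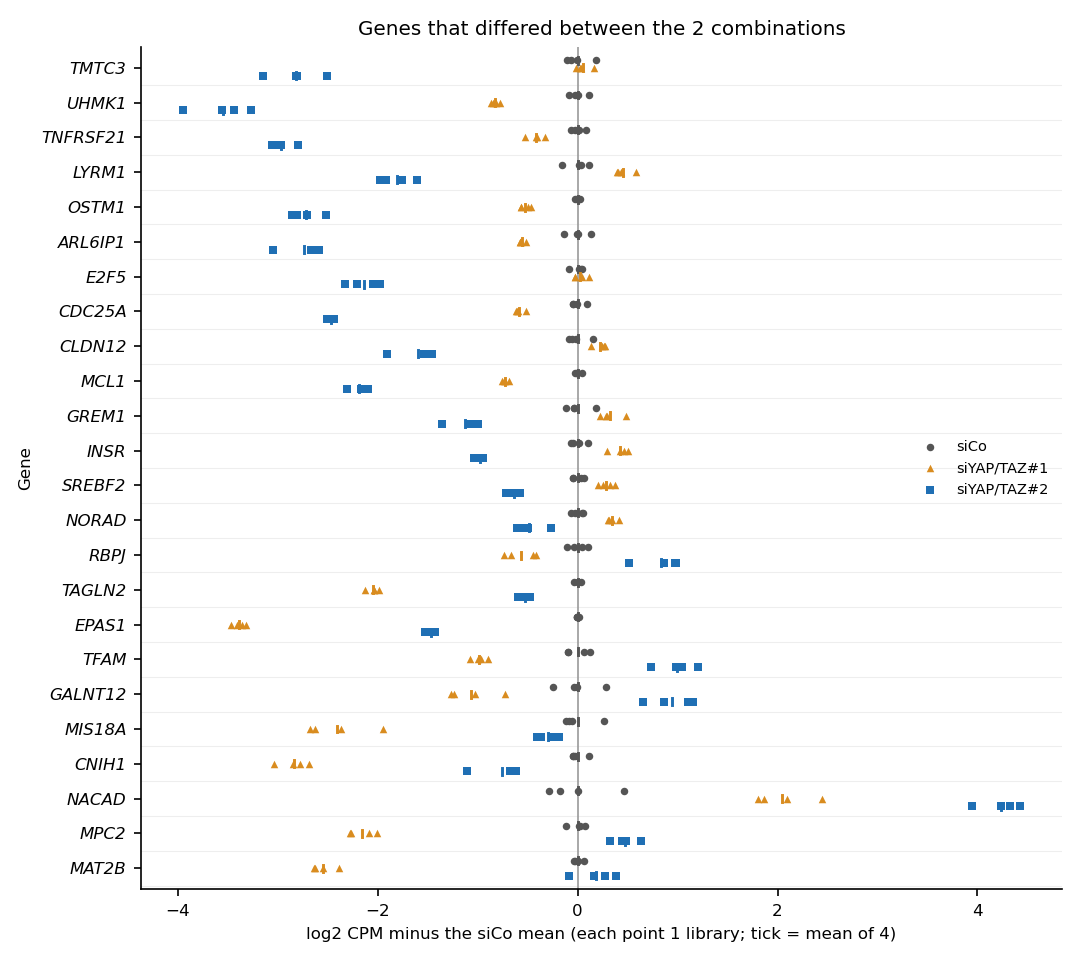
Log2 CPM of 24 genes that differed between the combinations, chosen after their values were seen, in each library of siCo (grey circles), siYAP/TAZ#1 (orange triangles) and siYAP/TAZ#2 (blue squares), minus the siCo mean, with a tick at each mean of 4. From TMTC3 down to NORAD the siYAP/TAZ#2 libraries lie left of the siYAP/TAZ#1 libraries, and from RBPJ down they lie right of them.

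Marker genes of other cell types were counted as well. Of 12 markers of A549 and lung epithelial cells, all tested, 9 rose and 2 fell, KRT7 and KRT18 (10 rose and 1 fell with library size alone). The list includes NQO1, AKR1B10, ALDH1A1 and GPX2, of which AKR1B10 and GPX2 were also counted among the antioxidant genes above. The sum of the 12 markers, in which KRT7 (-0.85 ± 0.12) had the highest mean CPM in siCo, was 10500 to 11300 CPM in siCo and 9310 to 11400 CPM in siYAP/TAZ#2. Of 10 leukocyte markers 6 lay under 0.5 CPM in all 8 libraries, CD3D and MS4A1 at a count of 0, and the sums were 30.1 to 33.4 CPM in siCo and 32.2 to 41.5 CPM after treatment. CD14 was the leukocyte marker that rose, from 2.17, 2.31, 2.59 and 1.85 CPM to 9.00, 5.52, 6.66 and 7.11 CPM (1.67 ± 0.15, adjusted p = 2.6e-07). Of 7 endothelial markers 6 lay under 0.5 CPM in all 8 libraries, and the sums stayed between 0.410 and 1.18 CPM. Fibroblast markers summed to 113 to 124 CPM in siCo and 119 to 177 CPM after treatment, with DCN and FAP under 0.5 CPM. THY1, a fibroblast and stem cell surface glycoprotein, rose from 8.75, 6.99, 6.98 and 8.05 CPM to 21.2, 15.6, 18.4 and 17.3 CPM (1.23 ± 0.10, adjusted p = 9.7e-08). The part of these markers in the changes above was not tested.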

How the data were processed

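A549 RNA was taken 24 h after siRNA transfection, extracted with a column kit (NucleoSpin RNA II), kept at integrity numbers over 7 and made into BGISeq-500 libraries, per the labels' protocols. The authors deposited 2 tables per library: estimated counts per Ensembl gene, without further scaling, and TPM values. Trim Galore 0.6.4, kallisto 0.4.6 and the build GRCh38.p13 are listed, without role or order, in the submitters' processing notes. Strandedness, ribosomal RNA removal and the summing of transcripts to genes are not given in the sources used here.

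Groups and replicate numbers came from the sample titles. After rounding of the deposited estimated counts to integers, edgeR 4.0.16 (R 4.3.3) fitted all 12 libraries with group as the only term, using filterByExpr, TMM factors and the quasi-likelihood F test. P-values were adjusted by Benjamini-Hochberg across the 21581 genes kept, the threshold was an adjusted p of 0.05, and the biological coefficient of variation was 0.105. The 8 libraries compared gave 3642 lower and 3673 higher genes when fitted alone. Gene types and 1-based coordinates (GRCh38) were read from GENCODE v29, which held 58444 of the identifiers. The fit was tested on simulated data. Within groups, log2 CPM correlated at 0.976 to 0.988 for siYAP/TAZ#2 and 0.983 to 0.986 for siCo, and every pair of libraries differed by more than sampling noise (chi-square per degree of freedom of 5.85 or more in these groups). Whether the replicates came from separate cultures is given only by the series' wording, so p-values measure the spread between these libraries.

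In all, 59 gene lists with 1638 distinct symbols were used, as counts and medians with no set test. The members and the lists were chosen with earlier results of these data known. Genes named were YAP1 and WWTR1; 12 coding genes per direction by log2 change, with no overlap and a group mean of at least 5 CPM; 6 per direction by CPM difference; 8 lncRNA genes with a symbol per direction at 1 CPM or more; 8 coding genes per direction by the difference between the combinations; up to 5 members per list by adjusted p; and all members of 4 short lists. This rule took 402 genes, and those described were chosen from them after their values were seen, as were the promoters shown. Alternatives were library size alone, DESeq2 1.42.0, no filter, at least 10 counts in at least 8 libraries, only the 8 libraries, a replicate block, GC content offsets, both together, limma 3.58.1 on log2(TPM + 1) at a mean TPM of at least 0.5, and leaving out each library. Some genes taken by the naming rule are not reported here.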

Additional observations from a re-analysis of the deposited data

Results flagged for a closer look

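For 252 named genes and the GC trend, each group of 4 libraries was searched for a library set apart from the other 3 by Dixon's criterion, which chance meets in about 1 of 20 groups. It was met in 32 of 506 groups. In the siYAP/TAZ#2 group it was met for 18 of the 252 genes and for the GC trend, each time by replicate 1. Its GC trend was 0.755 against -0.32 to -0.185 in replicates 2 to 4. Replicate 1 had been set apart by this trend beforehand, so that flag is not a separate result. Each of replicates 2 to 4 was set against 3 libraries that include replicate 1, which lowers its value. Replicate 1 was the highest siYAP/TAZ#2 library, in CPM, for AFAP1-AS1 (2.81), IFI35 (27.8), ISG20 (16.8), NOTCH3 (83.6), NRG1 (317), PLK1 (187), PMEPA1 (552), SOCS3 (49.3), SPDEF (25.2), TEAD3 (17.9) and WNT7B (294). It was the lowest for AKR1C1 (236), AKR1C2 (938), CNIH1 (32.05), DICER1 (92.00), EIF4A1 (427), SNHG29 (144) and VGLL3 (37.5). The part of the GC trend in these values was not tested.

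Close to the 1 in 20 groups that chance gives, 13 of the 252 genes had such a library in the siCo group. It was the highest siCo library, in CPM, for CDK2 (74.3, replicate 4), CHKA-DT (0.795, replicate 1), CNIH1 (74.9, replicate 4), EPAS1 (913, replicate 4), MIS18A (11.4, replicate 2), NRG1 (546, replicate 3) and PTGS2 (107, replicate 4), and the lowest for BECN1 (54.03, replicate 1), LRRC4B (0.924, replicate 2), MCM10 (64.1, replicate 1), SLC7A5 (5162, replicate 4), TEAD2 (39.7, replicate 4) and VPS9D1-AS1 (58.98, replicate 4).

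Among the named genes 11 were called in opposite directions with the combinations, and each differed between them in the direct edgeR comparison. Expression with siYAP/TAZ#2 was above that with siYAP/TAZ#1, on the log2 scale, for GALNT12 (2.01), MPC2 (2.63), RBPJ (1.41) and TFAM (1.98). It was below for BCL2L13 (-0.69), GREM1 (-1.45), INSR (-1.40), LYRM1 (-2.26), NORAD (-0.83), SREBF2 (-0.93) and VGLL3 (-0.91). The largest adjusted p of these differences was 1.0e-06. Both combinations were compared with the same siCo libraries.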

How the results depend on the processing

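The counts of genes lower and higher against siCo stayed within 1.5 times the reported ones under DESeq2, both other count filters, the 8 libraries alone, GC content offsets and the replicate block, and when any 1 library was left out. Scaling and the unit changed them. With library size alone 2037 genes were lower and 6538 higher, 240 and 1643 by a log2 change of 1 or more, and 127 and 838 among lncRNA genes, and the median change of all genes was 0.21, against 0.02 with TMM. With limma on log2(TPM + 1) 172 genes were lower and 2731 higher, 58 and 601 by 1 or more, and 9 and 275 among lncRNA genes, at a median of 0.31, and the combinations differed in 42 genes lower and 63 higher. The cause was not tested. Leaving out 1 library gave 3683 to 4893 lower and 3704 to 4614 higher genes, 385 to 507 and 1059 to 1111 by 1 or more, 189 to 324 and 397 to 520 lncRNA genes. Between the combinations it gave 1178 to 2287 lower and 1278 to 2840 higher, the upper values without replicate 1 of siYAP/TAZ#2. GC content offsets gave 2313 genes lower than with siYAP/TAZ#1, and 2322 with the replicate block added.

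Replicate numbers gave no uniform pairing: deviations of same-numbered siCo and siYAP/TAZ#2 libraries correlated at -0.072 to 0.135, against -0.244 to 0.17 for unlike numbers. Not every library correlated best with its own number. Replicate 4 correlated positively with its own number in siCo and siYAP/TAZ#2 (0.135), siCo and siYAP/TAZ#1 (0.177), and the 2 combinations (0.193). These values do not settle whether the numbers pair the samples. The replicate block gave 4231 lower and 4035 higher genes against siCo, and 1519 and 1747 between the combinations.

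YAP1 and WWTR1 had differences of -2.85 to -2.78 and -2.94 to -2.85 in mean log2 CPM with 1 library left out (exact permutation p = 0.0286 each time). With library size alone the differences were -2.62 and -2.71. They were smaller on log2(TPM + 1), at -2.10 and -2.11, so the share of transcript left depends on the unit. Of the genes named, 247 to 251 of 252 kept direction and side of the threshold under each setting other than library size alone (240) and log2(TPM + 1) (126 of 244). With library size alone BAX stood at 0.01. On log2(TPM + 1) the sign turned to positive, with no gene passing the test, for ASAP1 (0.10), BAX (0.27), BCL2L12 (0.08), BCL2L13 (0.13), BCL2L2 (0.22), BNIP3 (0.18), CRIM1 (0.06), EGFR (0.05), FOSL2 (0.07), GAS6 (0.05), IGF1R (0.13), IGFBP3 (0.20), PKM (0.21), TAP1 (0.02), TEAD1 (0.03), TEAD2 (0.04) and ZEB1 (0.09). Low genes limit the rest: 10 counts were 0.261 to 0.338 CPM.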

Other observations

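Several gene groups not described above also held called genes, where 25.7% of all coding genes tested were called lower and 23.3% higher. The shares of unfolded protein response genes (21.4% lower and 14.3% higher) lay below these, and those of BMP and activin genes (29.6% and 25.9%) near them. Of 15 genes of microRNA processing 9 fell and 1 rose (4 and 3 with library size alone). AGO2, the slicing Argonaute, measured 244, 256, 246 and 249 CPM in siCo and 143, 149, 137 and 142 CPM with siYAP/TAZ#2 (-0.80 ± 0.05, adjusted p = 2.7e-09). DICER1, which cuts microRNA precursors, fell by 0.88 ± 0.08, and AGO4 rose by 0.62 ± 0.11. AGO2 was lower than with the first combination (-0.75 ± 0.05, adjusted p = 1.3e-08).

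BMP and activin genes gave 8 of 27 lower and 7 higher (8 and 12 with library size alone). SMAD5, a BMP-regulated SMAD, fell by 1.14 ± 0.09, and BMP4 and FST, the activin antagonist follistatin, rose by 1.02 ± 0.11 and 1.12 ± 0.09. Proteasome genes gave 16 of 40 lower and 2 higher, and 2 and 7 with library size alone, with PSMD10 the deepest fall (-0.99 ± 0.09). Of 27 ATF4 target and amino acid genes 11 fell and 7 rose, and with library size alone 9 fell and 10 rose. ATF4 itself fell by 0.65 ± 0.06 and STC2, a secreted glycoprotein, by 1.25 ± 0.08. Of 28 unfolded protein response genes 6 fell and 4 rose (3 and 10 with library size alone), among them DNAJC3, an inhibitor of the kinase PERK (-0.92 ± 0.09), and ERN1, the sensor IRE1 (0.64 ± 0.07).

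MXD4, a MAX partner that opposes MYC, rose from 31.5, 29.05, 28.9 and 29.6 CPM to 76.03, 49.9, 55.7 and 58.2 CPM (1.01 ± 0.11, adjusted p = 2.0e-06), with replicate 1 the highest treated library and a change of 0.88 without it. Of 14 KLF genes 4 fell and 5 rose, with KLF10, a TGF-beta response factor, at -0.84 ± 0.06 and KLF9 at 0.74 ± 0.14. Of the 5 genes of TAM receptors and their ligands, the receptor gene AXL (-1.13 ± 0.07) and the ligand gene GAS6 fell, and the ligand gene PROS1 rose by 0.59 ± 0.10.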
